A study of Mus musculus with 8 samples.

Results

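Mouse embryonic fibroblasts (MEFs) without the histone acetyltransferase HAT1 were compared between 2 marks of heterochromatin, the trimethyl form (H3K9me3) and the dimethyl form (H3K9me2) of lysine 9 of histone H3. The members were pairs of regions, one from the H3K9me2 peak table and one from the H3K9me3 peak table, that shared at least 1 bp and were matched one to one by the largest overlap. There were 786 such pairs, out of 1983 H3K9me2 regions and 14515 H3K9me3 regions left after duplicated rows were removed. The lean of a pair is the log2 difference of H3K9me3 minus H3K9me2 reads, per library total, over the 4 knockout libraries. Levels are given as RPM, the reads of a region scaled to library total, computed here from the authors' counts. Coordinates are those of the shared part of a pair on mm10.

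The series holds 8 ChIP-seq libraries, 2 for each mark in HAT1 knockout (KO, HAT1-/-) and 2 for each mark in wild-type (WT, HAT1+/+) cells. All came from immortalized MEFs of C57bl6 background, derived from 2 embryos of each genotype and grown in DMEM with 10% FBS and antibiotics, with chromatin of human Dbt immortalized myoblasts added as a spike-in. The study immortalized its MEFs with SV40 T antigen, so the lines are transformed derivatives of single embryos and not primary fibroblasts. H3K9me2 was precipitated with Abcam ab1220 and H3K9me3 with Abcam ab8898. The 2 antibodies are separate reagents, so a lean of all pairs together and a difference in how well each antibody pulls down its mark cannot be told apart. No input library and no spike-in counts were used here, and ChIP-seq counts do not show whether HAT1 or fibroblast marker genes were expressed. More cells with a mark and more of it per cell cannot be told apart in such bulk libraries. The library totals of the KO libraries were 5523641 and 5422405 reads for H3K9me2 and 4198682 and 4622354 for H3K9me3.

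H3K9me3 is the classical mark of constitutive heterochromatin, the compact chromatin of pericentromeric satellites, telomeres and many transposable elements. It is written chiefly by SUV39H1, SUV39H2 and SETDB1 and is bound by HP1 proteins. H3K9me2 is written chiefly by G9a and GLP, covers broad repressed domains, many of them at the nuclear lamina, and is also a substrate from which the trimethyl mark is made. HAT1 acetylates newly made histone H4 before it is deposited behind the replication fork.

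The 9 stretches below, each from the shared part of a pair, show what kinds of sequence lay in pairs called toward each mark, and in the strongest peaks. All were read from the RefSeq copy of GRCm38.p6 (mm10) on the strand named, 5′ to 3′, with every CG dinucleotide, the site of DNA methylation, in capitals. The first 2 belong to the pairs near Zfp640 (chr13:66666576-66666875, plus strand), which had the largest lean toward H3K9me3, and in the pseudogene Gm13238 (chr4:145837288-145837528, plus strand), which held 23 CG in 241 bases where the Zfp640 window held 0.
near Zfp640: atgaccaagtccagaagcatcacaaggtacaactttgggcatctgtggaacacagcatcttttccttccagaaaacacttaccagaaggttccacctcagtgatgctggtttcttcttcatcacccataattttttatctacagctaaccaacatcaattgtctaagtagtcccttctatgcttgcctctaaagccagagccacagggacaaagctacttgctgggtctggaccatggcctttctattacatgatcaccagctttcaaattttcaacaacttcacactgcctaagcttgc
Gm13238: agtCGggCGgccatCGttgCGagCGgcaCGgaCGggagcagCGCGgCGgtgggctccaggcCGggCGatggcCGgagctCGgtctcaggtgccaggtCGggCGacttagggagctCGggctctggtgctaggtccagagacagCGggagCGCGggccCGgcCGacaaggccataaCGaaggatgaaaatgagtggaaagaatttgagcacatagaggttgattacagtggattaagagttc
The next is from the ribosomal RNA stretch of chromosome 17 (chr17:39845043-39845342, plus strand), the pair with the most reads among those with a lean over 2. The rRNA gene CT010467.1 matched 918 bases of this pair, and whether the printed part lies among them was not checked. After this stretch come the aligned parts of the pair in Cmss1 and Filip1l (chr16:57391258-57391457, plus strand) and of an intergenic pair on chromosome 8 (chr8:15519775-15519977, minus strand). These parts were 98.0% identical over 203 aligned positions.
rRNA stretch: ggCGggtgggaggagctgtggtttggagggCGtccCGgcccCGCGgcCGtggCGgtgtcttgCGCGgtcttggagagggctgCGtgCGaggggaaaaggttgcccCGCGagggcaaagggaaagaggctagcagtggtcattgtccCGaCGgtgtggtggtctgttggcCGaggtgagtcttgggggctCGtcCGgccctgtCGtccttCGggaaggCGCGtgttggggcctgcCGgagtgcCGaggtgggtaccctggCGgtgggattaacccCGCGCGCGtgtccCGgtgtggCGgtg
Cmss1 and Filip1l: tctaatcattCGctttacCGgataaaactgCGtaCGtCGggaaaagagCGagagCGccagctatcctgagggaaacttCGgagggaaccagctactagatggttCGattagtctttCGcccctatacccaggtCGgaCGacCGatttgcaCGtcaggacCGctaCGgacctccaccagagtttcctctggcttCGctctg
chromosome 8 copy: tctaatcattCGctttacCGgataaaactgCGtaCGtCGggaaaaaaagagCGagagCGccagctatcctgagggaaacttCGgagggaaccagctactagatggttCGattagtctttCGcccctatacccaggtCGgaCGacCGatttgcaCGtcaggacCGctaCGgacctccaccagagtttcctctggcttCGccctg
Next is a satellite repeat under the gene model Gm10718 (chr9:3024197-3024496, plus strand), one of the 5 strongest pairs.
Gm10718: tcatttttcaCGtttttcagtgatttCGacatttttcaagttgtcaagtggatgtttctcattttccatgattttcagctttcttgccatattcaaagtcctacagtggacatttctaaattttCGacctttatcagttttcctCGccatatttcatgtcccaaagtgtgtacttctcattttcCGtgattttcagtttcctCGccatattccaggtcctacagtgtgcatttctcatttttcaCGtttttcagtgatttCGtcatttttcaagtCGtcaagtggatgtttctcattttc
The last 3 are the pairs called toward H3K9me2, near Gm23215 (chr16:3268222-3268489), in an intron of Sos2 (chr12:69654018-69654317) and in an intron of Cldn34d (chrX:76598734-76599033), all on the plus strand.
near Gm23215: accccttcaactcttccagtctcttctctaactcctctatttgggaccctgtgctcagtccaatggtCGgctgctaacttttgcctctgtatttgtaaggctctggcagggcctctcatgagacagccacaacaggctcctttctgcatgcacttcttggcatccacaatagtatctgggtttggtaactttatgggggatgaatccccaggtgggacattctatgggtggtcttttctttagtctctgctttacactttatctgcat
Sos2: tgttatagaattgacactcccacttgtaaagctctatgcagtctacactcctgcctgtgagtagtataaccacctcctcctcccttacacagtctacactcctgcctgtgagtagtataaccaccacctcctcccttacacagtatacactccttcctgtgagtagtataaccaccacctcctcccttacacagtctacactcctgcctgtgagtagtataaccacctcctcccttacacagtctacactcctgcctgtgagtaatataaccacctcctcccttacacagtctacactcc
Cldn34d: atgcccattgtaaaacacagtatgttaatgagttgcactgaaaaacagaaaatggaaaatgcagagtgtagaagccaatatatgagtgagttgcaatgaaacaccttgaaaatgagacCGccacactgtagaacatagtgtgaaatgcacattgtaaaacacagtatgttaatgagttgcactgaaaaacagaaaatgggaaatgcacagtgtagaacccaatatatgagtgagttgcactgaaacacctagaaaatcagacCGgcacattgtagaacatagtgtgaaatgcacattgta
Within its shared part, the Sos2 stretch matched itself best when shifted by 51 bases (64.3% of bases identical), and the Cldn34d stretch when shifted by 144 bases (64.7%). The Gm10718 stretch matched itself best at a shift of 234 bases (93.6%).

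Most of the shared regions carried more H3K9me3 than H3K9me2 reads in the KO cells. Of the 786 pairs tested, 263 were called toward H3K9me3 (33.5%) and 3 toward H3K9me2 (0.382%) at an adjusted p under 0.05, and 520 were not called. The log2 difference was above 0 in 660 pairs (84.0%), below 0 in 123 and 0 in 3 pairs that had no read in any KO library. Both H3K9me3 libraries lay above both H3K9me2 libraries in 474 pairs (60.3%), and the reverse held in 38 (4.83%). The median lean was 0.66 by edgeR, the quartiles were 0.23 and 1.16, and 24 pairs had a lean of at least 2. At the other end 5 pairs had a log2 difference of -1 or lower, down to -2.74, of which the pair near Gm23215 was called. No pair was left out for low counts.

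The level of the median pair showed the same split between libraries. It was 7.06 and 7.19 RPM in the H3K9me2 libraries and 11.1 and 10.6 in the H3K9me3 libraries, so the 2 marks did not overlap. On the log2(RPM + 1) scale, the per-library medians differed by 0.54 (3.57 ± 0.04 against 3.02 ± 0.02, SD, n = 2 each, exact two-sided permutation p = 0.333, the smallest that 2 against 2 allow). The median over pairs of the difference on that scale was 0.58, and 83.6% of pairs were higher in H3K9me3. The paired regions held 9.04% and 8.49% of the H3K9me2 reads and 13.4% and 13.6% of the H3K9me3 reads, and the 95% Wilson intervals, which cover counting error only, were 9.02% to 9.06%, 8.47% to 8.51%, 13.3% to 13.4% and 13.6% to 13.7%. These sums ran over 309 kb of H3K9me2 regions and 366 kb of H3K9me3 regions. Per kb they came to 283 ± 12.6 and 369 ± 5.72 RPM (SD, n = 2, exact permutation p = 0.333), a ratio of 1.30 where the uncorrected ratio was 1.54. The 10 pairs with the highest mean level held 67.0% to 69.6% of these sums, and outside them the uncorrected ratio was 1.67.

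The direction depended on what the libraries were scaled to. TMM scaling, which sets the typical pair to no change, moved the median lean from 0.66 to -0.03 and left 71 pairs called toward H3K9me3 (9.03%) and 70 toward H3K9me2 (8.91%), 17.9% together. All of those 71 and all 3 of the H3K9me2 calls above were shared with the calls on library totals. Values are given below per library total, and the TMM value stands beside a pair where the order of pairs matters. A pair whose TMM value stayed above 0 leaned further to H3K9me3 than the typical pair.

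**Figure D1:**
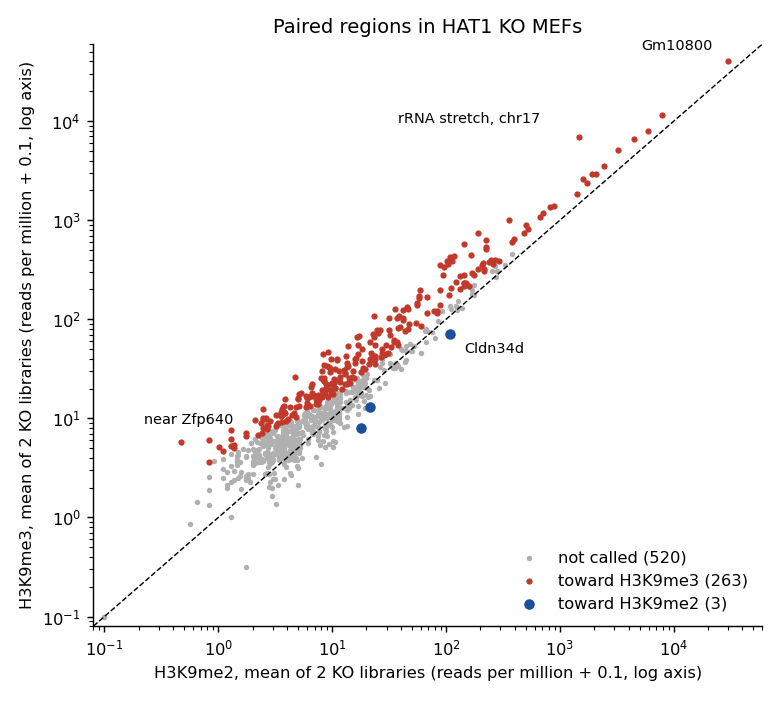
Mean H3K9me2 (x axis) and H3K9me3 (y axis) level of the 786 pairs in the KO libraries, in RPM plus 0.1 on log axes, with the dashed line at equal levels. The 263 pairs called toward H3K9me3 lie above the line over the whole range, up to Gm10800, and the 3 called toward H3K9me2 lie below it.

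Region width moved with the lean. The H3K9me3 region of a pair was wider, with a median of 404 bp against 337 bp, and the median shared part was 292 bp. In the quartile of pairs with the lowest ratio of H3K9me3 to H3K9me2 width the median lean was 0.23, with 10 of 197 pairs called toward H3K9me3. It was 0.52, 0.76 and 1.23 in the next quartiles, with 80 of 196, 68 of 196 and 105 of 197 called. Counted per kb of its own region, the same quartiles had medians of 0.45, 0.46, 0.51 and 0.33. Across the 786 pairs, which share the same libraries, the lean had a Spearman rho with the log2 width ratio of 0.57, and the per-kb lean a rho of -0.09. Per kb, 165 pairs were called toward H3K9me3 (21.0%) and 8 toward H3K9me2 (1.02%), 22.0% together, with a median of 0.45. Of the 263 and 3 calls, 154 and 1 were shared with the per-kb calls. Per kb, per library total and under TMM together, 60 pairs were called toward H3K9me3.

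A single pair shows the size of this. In an intron of Tmem267 (chr13:119598889-119599242), the H3K9me2 region was 354 bp and the H3K9me3 region 1384 bp. It held 132 and 95.3 RPM in the H3K9me2 libraries and 403 and 375 in the H3K9me3 libraries, a lean of 1.77 ± 0.17 (SE, adjusted p = 4.85e-22) and a per-kb lean of -0.19 (adjusted p = 0.495). This pair, like the other pairs outside the naming rule that are described below, was picked after its values were seen.

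**Figure D2:**
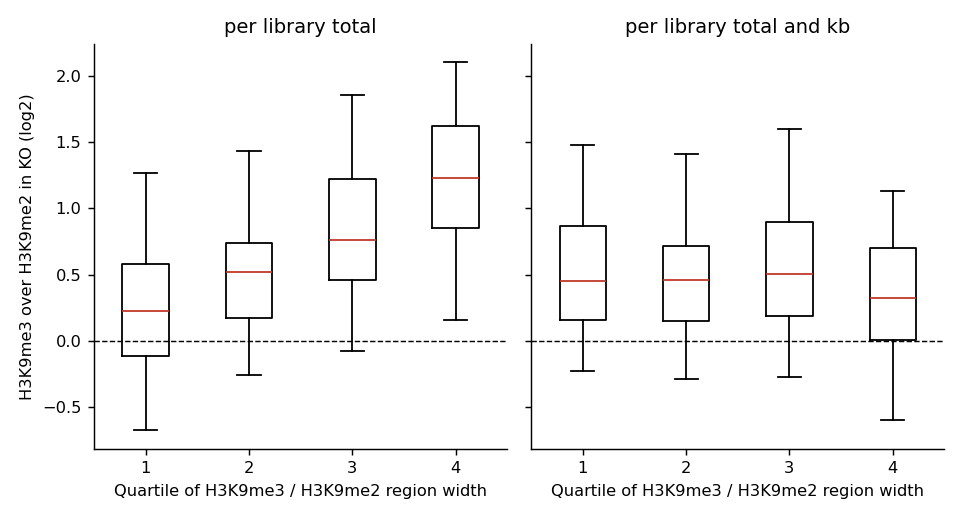
Lean of the pairs (log2) by quartile of the ratio of H3K9me3 to H3K9me2 region width, per library total (left) and also per kb of region (right). Boxes span the quartiles, red lines are medians and whiskers reach the 5th and 95th percentiles. The medians climb from 0.23 to 1.23 on the left and stay between 0.33 and 0.51 on the right.

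The 10 called pairs with the largest lean toward H3K9me3 had log2 differences of 2.24 to 3.88, and 5 of them had fewer than 20 reads in the H3K9me2 libraries together. Of the 10, 3 lay on chromosome 13. The pair near Zfp640 (chr13:66666518-66666934), annotated as a transcribed processed pseudogene of the zinc finger family, held 0.362 and 0.369 RPM in the H3K9me2 libraries and 4.05 and 7.36 in the H3K9me3 libraries. With 4 reads against 51, its ratio of rates was 15.8 (exact 95% interval 5.81 to 60.3), and its lean was 3.88 ± 0.94 (SE, adjusted p = 0.000249). The pair near Gm19428 (chr13:65681257-65681836) held 0.724 and 0.738 RPM in the H3K9me2 libraries and 5.72 and 6.06 in the H3K9me3 libraries, a lean of 2.97 ± 0.84 (SE, adjusted p = 0.00209). In the pseudogene Gm48165 and the gene model Gm48166 (chr13:65525029-65525328) the levels were 1.81 and 0.553 RPM in the H3K9me2 libraries and 6.43 and 5.62 in the H3K9me3 libraries, with a lean of 2.32 ± 0.78 (SE, adjusted p = 0.0114). In all 3 the 2 marks were apart in every KO library, at low counts. The Zfp640 and Gm19428 pairs stayed called per kb and under TMM. The Gm48165 pair did not, with 1.28 (adjusted p = 0.265) per kb and 1.64 (adjusted p = 0.142) under TMM.

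The other low-count pairs were intergenic. A pair on chromosome 6 with no gene within 50 kb (chr6:131824603-131824880) held 1.27 and 1.11 RPM in the H3K9me2 libraries and 8.1 and 6.92 in the H3K9me3 libraries, a lean of 2.63 ± 0.74 (SE, adjusted p = 0.00176). A pair near Gm10358 (chr8:75425943-75426187) held 0.724 and 1.11 RPM in the H3K9me2 libraries and 4.29 and 5.84 in the H3K9me3 libraries, a lean of 2.44 ± 0.83 (SE, adjusted p = 0.0127). A pair near Gm4106 (chr16:3150536-3150658) held 2.72 and 1.29 RPM in the H3K9me2 libraries and 10.2 and 8.87 in the H3K9me3 libraries, a lean of 2.24 ± 0.60 (SE, adjusted p = 0.00101). Under TMM these 3 kept leans of 1.95 (adjusted p = 0.0501), 1.75 (adjusted p = 0.14) and 1.55 (adjusted p = 0.0627), short of the threshold. Per kb they had 1.84 (adjusted p = 0.0532), 2.71 (adjusted p = 0.00812) and 1.28 (adjusted p = 0.116), and only the Gm10358 pair passed.

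The remaining 4 held more reads and stayed called under TMM. The Gm13238 pair (chr4:145837288-145837528), in an exon of a processed pseudogene, held 3.44 and 5.72 RPM in the H3K9me2 libraries and 25.2 and 27 in the H3K9me3 libraries, a lean of 2.51 ± 0.34 (SE, adjusted p = 3.36e-12). Its H3K9me3 region was 723 bp and its H3K9me2 region 241 bp, and the per-kb lean was 0.93 (adjusted p = 0.0314). A chromosome X pair with no gene within 50 kb (chrX:31175598-31176081) held 8.51 and 7.93 RPM in the H3K9me2 libraries and 45.5 and 43.9 in the H3K9me3 libraries, a lean of 2.44 ± 0.27 (SE, adjusted p = 2.39e-17) and a per-kb lean of 1.06 (adjusted p = 0.000935). A chromosome 18 pair, also without a gene within 50 kb (chr18:82161782-82162103), held 9.78 and 8.48 RPM in the H3K9me2 libraries and 51 and 41.8 in the H3K9me3 libraries, a lean of 2.34 ± 0.26 (SE, adjusted p = 1.21e-16) that came to 0.69 (adjusted p = 0.0458) per kb. In introns of Gm21411 and Gm26573 (chr4:146892747-146893008) the levels were 2.9 and 1.84 RPM in the H3K9me2 libraries and 8.81 and 15.6 in the H3K9me3 libraries, a lean of 2.35 ± 0.50 (SE, adjusted p = 2.35e-05) that per kb was 1.12 (adjusted p = 0.101) and no longer passed. Of the 10 pairs, 6 passed per kb and 6 under TMM.

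Toward H3K9me2, 3 pairs were called, and in all 3 both H3K9me2 libraries lay above both H3K9me3 libraries. The one with the most reads was in an intron of Cldn34d (chrX:76598549-76599219), a claudin-family gene of the X chromosome. It held 125 and 90.7 RPM in the H3K9me2 libraries and 66.4 and 73.8 in the H3K9me3 libraries, a log2 difference of -0.62 ± 0.19 (SE, adjusted p = 0.00575). Its 2 regions were 702 and 700 bp, and the per-kb difference was -0.62 (adjusted p = 0.00982), so it was the 1 pair called toward H3K9me2 both per library total and per kb. The pair in an intron of Sos2 (chr12:69653994-69654341), which encodes a guanine nucleotide exchange factor for Ras, held 24.6 and 18.4 RPM in the H3K9me2 libraries and 15 and 10.6 in the H3K9me3 libraries, a log2 difference of -0.75 ± 0.29 (SE, adjusted p = 0.0329). Its H3K9me2 region was 411 bp and its H3K9me3 region 348 bp, and the per-kb difference was -0.51 (adjusted p = 0.228). The pair near Gm23215 (chr16:3268222-3268489) held 19.2 and 16.2 RPM in the H3K9me2 libraries and 6.19 and 9.52 in the H3K9me3 libraries, a log2 difference of -1.16 ± 0.34 (SE, adjusted p = 0.0027). There the H3K9me2 region was 542 bp and the H3K9me3 region 268 bp, and per kb the difference was -0.15 (adjusted p = 0.829). Without the KO 1 H3K9me2 library, or without the KO 1 H3K9me3 library, none of the 3 was called, and without the KO 2 H3K9me3 library Gm23215 alone was. In each of these fits the lone library of a mark was assumed to vary like those of the other mark.

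**Figure D3:**
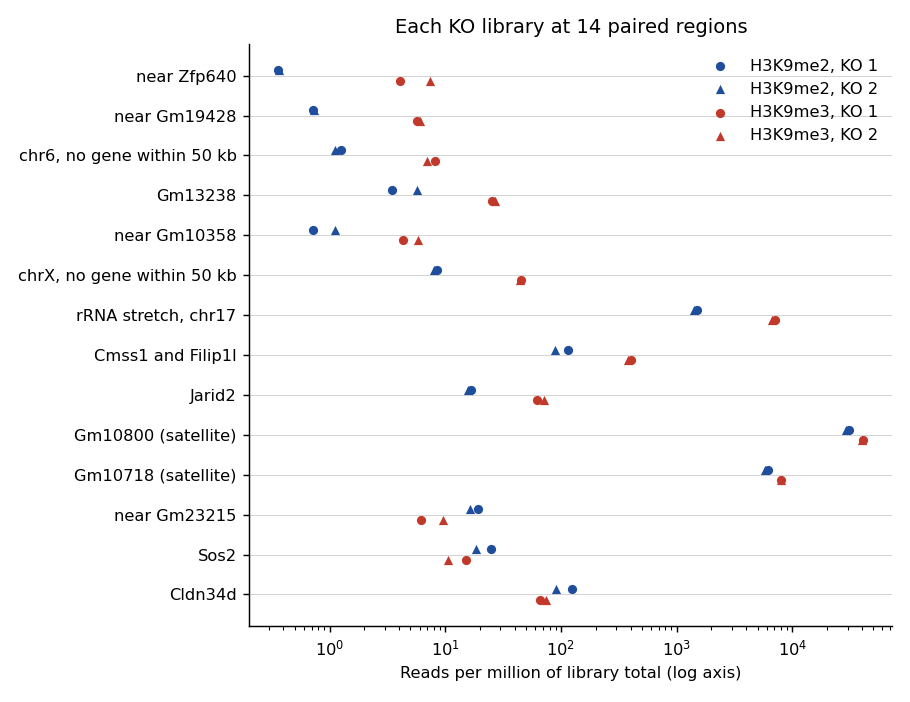
Level of 14 pairs in each of the 4 KO libraries, in RPM of library total on a log axis, blue for H3K9me2 and red for H3K9me3, circles for KO 1 and triangles for KO 2. The red points lie to the right of the blue ones in the upper 11 rows and to the left in the lowest 3, and in no row do the colours overlap.

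Ribosomal RNA genes combined a large lean with high counts. Ribosomal DNA is present in many tandem copies, of which a part is silenced, and the reference holds only fragments of it. The pair on chromosome 17 (chr17:39843116-39847270) overlapped the GENCODE rRNA gene CT010467.1 and the noncoding RNA genes Gm26917, Gm42418 and AY036118. It held 1513 and 1417 RPM in the H3K9me2 libraries and 7082 and 6628 in the H3K9me3 libraries, a lean of 2.23 ± 0.13 (SE, adjusted p = 1.62e-58), or 1.79 (adjusted p = 1e-39) per kb and 1.53 (adjusted p = 3.74e-43) under TMM. It took 0.151% and 0.142% of the H3K9me2 libraries and 0.708% and 0.663% of the H3K9me3 libraries. The 5.8S rRNA gene n-R5-8s1 on chromosome 18 (chr18:73533265-73533666) held 34.6 and 36 RPM in the H3K9me2 libraries and 133 and 123 in the H3K9me3 libraries, a lean of 1.86 ± 0.20 (SE, adjusted p = 1.25e-17) and a per-kb lean of 1.76 (adjusted p = 1.21e-15). An intergenic pair on chromosome 6 (chr6:3201297-3201646), 96.6% identical to CT010467.1 over 350 bases, held 20.5 and 22.3 RPM in the H3K9me2 libraries and 58.8 and 59.3 in the H3K9me3 libraries, a lean of 1.46 ± 0.23 (SE, adjusted p = 3.66e-09). These were the 3 of 741 pairs with sequence that matched any of 354 GENCODE rRNA genes over at least 60 bases at 80% identity or more. All 3 stayed called under TMM and per kb, where 9.03% and 21.0% of all pairs were called toward H3K9me3. How reads that fit several copies were placed is not given in the sources used here, so a level belongs to the copies together and not to one place.

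The 5 strongest paired peaks were satellite sequence. Major satellite, the tandem repeat of mouse pericentromeres, is the textbook site of H3K9me3. Of the pairs, 36 formed a set of similar sequences (at least 80% identity over 50% of the shorter one) around Gm10800, with a median GC content of 35.3%, 19 of them on chromosome 9. The set held 77.7% and 77.6% of the H3K9me2 reads in paired regions and 70.9% and 72.7% of the H3K9me3 reads. In the Gm10800 pair itself (chr2:98666232-98667396) there were 30659.8 and 29135 RPM in the H3K9me2 libraries and 40976 and 40216 in the H3K9me3 libraries, a lean of 0.44 ± 0.10 (SE, adjusted p = 6.56e-05). The pair in Gm10801 (chr2:98662195-98662941) held 3393 and 3130.2 RPM in the H3K9me2 libraries and 4814 and 5434 in the H3K9me3 libraries, a lean of 0.65 ± 0.12 (SE, adjusted p = 1.6e-06). In Gm10722 (chr9:3000047-3001565) the levels were 8161 and 7711 RPM in the H3K9me2 libraries and 11089 and 11816 in the H3K9me3 libraries, with a lean of 0.53 ± 0.11 (SE, adjusted p = 2.7e-05). The Gm10718 pair (chr9:3024005-3024689) held 6176 and 5747 RPM in the H3K9me2 libraries and 8002 and 8040.3 in the H3K9me3 libraries, a lean of 0.43 ± 0.12 (SE, adjusted p = 0.00132). The Gm33838 pair (chr9:35305096-35305682) held 4639 and 4323 RPM in the H3K9me2 libraries and 6314 and 6749 in the H3K9me3 libraries, a lean of 0.54 ± 0.12 (SE, adjusted p = 4.88e-05). These were the 5 pairs with the highest mean, and the ratio of their summed rates was 1.35 to 1.57.

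Over the 36 satellite pairs the median lean was 0.60, and 29 were called toward H3K9me3 and 0 toward H3K9me2, beside 0.66 and 33.5% over all pairs. The values ran from -0.36 to 0.91. Median widths were 430 bp for H3K9me2 and 434 bp for H3K9me3, and the per-kb median was 0.55 with 29 called, where the per-kb median of all pairs was 0.45. The satellite set was thus below the median of all pairs per library total and above it per kb. Under TMM the median was -0.10, with 0 of the 36 called toward H3K9me3 and 3 toward H3K9me2. TMM gave the 5 strongest pairs log2 differences of -0.27 to -0.05. Of these, Gm10800 (adjusted p = 0.00248) and Gm10718 (adjusted p = 0.023) were called toward H3K9me2 under TMM. The satellite copies share sequence, and whether they share reads was not tested, so the 36 pairs cannot be counted as 36 independent measurements. The CENP-B box, searched on both strands, is the binding motif of a centromere protein. It was found in 3 of the 741 windows of 300 bp (0.405%), and all 3 were called toward H3K9me3, beside 33.5% of all pairs. Their leans were 0.65 to 0.83, with a median of 0.70 beside 0.66 over all pairs, and 0 were called under TMM. The median of their mean counts was 10035 reads, beside 44.75 over all pairs.

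Other sets of similar sequences leaned further than the satellite set. The Cmss1 and Filip1l pair (chr16:57391258-57391826) held 114 and 88.5 RPM in the H3K9me2 libraries and 403 and 378 in the H3K9me3 libraries, a lean of 1.94 ± 0.17 (SE, adjusted p = 1.22e-25). Cmss1 encodes a ribosomal small subunit protein homologue and Filip1l a filamin A interacting protein. Its copies lay in an intron of Jarid2 (chr13:44869449-44869823), a cofactor of Polycomb repressive complex 2, and in intergenic places on chromosome 8 (chr8:15519758-15520104) and chromosome 18 (chr18:68692004-68692340). The Jarid2 pair held 16.7 and 15.9 RPM in the H3K9me2 libraries and 61.9 and 71 in the H3K9me3 libraries, a lean of 2.03 ± 0.23 (SE, adjusted p = 5e-16). The chromosome 8 and 18 pairs had leans of 1.85 ± 0.26 (SE, adjusted p = 6.79e-11) and 1.42 ± 0.25 (SE, adjusted p = 1.24e-07). All 4 were called per library total, per kb (median 1.68) and under TMM (median 1.20). Of all pairs, 33.5%, 21.0% and 9.03% were called toward H3K9me3 in these 3 ways. The highest-CG pair of all, over the miRNA gene model Gm23935 within Zc3h7a (chr16:11143893-11144332), held 11.6 CG per 100 bp and 64.1 and 54.2 RPM in the H3K9me2 libraries and 216 and 178 in the H3K9me3 libraries, a lean of 1.74 ± 0.19 (SE, adjusted p = 6.94e-18).

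A pair of larger sets showed the same direction with moderate values. In the set of 8 that includes introns of Ano2, a chloride channel gene, March1, an E3 ubiquitin ligase gene, and Dpp9, a peptidase gene, all 8 were called toward H3K9me3, with leans of 0.70 to 1.39 and a median of 1.21, while 6 were called per kb and 2 under TMM. Its pair with the most reads, intergenic near 4930517M08Rik (chr17:4626081-4626694), held 225 and 226 RPM in the H3K9me2 libraries and 474 and 603 in the H3K9me3 libraries, a lean of 1.26 ± 0.16 (SE, adjusted p = 4.2e-13). In the set of 7 that includes introns of 2700054A10Rik, Gm525 and Smo, the Hedgehog signal transducer, 5 were called, with a median of 1.44, while 6 were called per kb and 5 under TMM. The 2700054A10Rik pair (chr17:13552179-13553169) held 387 and 319 RPM in the H3K9me2 libraries and 1013 and 982 in the H3K9me3 libraries, 2.82-fold more in H3K9me3 (adjusted p = 2.22e-20), with a per-kb lean of 1.02 (adjusted p = 7.7e-10). The 2 largest sets, of 73 and 60 dispersed pairs, had lower medians of 0.51 and 0.39, with 12 and 10 called toward H3K9me3 (16.4% and 16.7%, beside 33.5% of all pairs). The set of 73 also held the Gm23215 pair, called toward H3K9me2. Under TMM 1 was called toward H3K9me3 and 8 toward H3K9me2 in the set of 73, and 0 and 11 in the set of 60. The TMM shares over all pairs were 9.03% toward H3K9me3 and 8.91% toward H3K9me2. Of the 341 pairs in any set, 130 were called toward H3K9me3 (median 0.67), and of the 400 pairs with no similar pair 100 were (median 0.60). Under TMM 32 and 25 of the 341 were called toward H3K9me3 and H3K9me2, and 32 and 43 of the 400.

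Among gene families with over 10 pairs, those near zinc finger genes had the highest median per library total but not per kb. KRAB zinc finger genes lie in clusters whose coding ends carry H3K9me3. Of 36 pairs within 50 kb of a zinc finger protein gene, 14 were called toward H3K9me3 and 0 toward H3K9me2, with a median lean of 0.96. This is 38.9%, beside 33.5% of all pairs. Per kb 7 of the 36 were called, beside 21.0% of all pairs, with a median of 0.37, and under TMM 6 toward H3K9me3 and 1 toward H3K9me2. The 3 with the smallest p were all on chromosome 4. The first was the Gm13238 pair, which lies within 50 kb of Zfp986. The pair in introns of C230088H06Rik and Gm26624, near Zfp978 and Zfp988 (chr4:147336795-147337064), held 10.9 and 10.9 RPM in the H3K9me2 libraries and 34.5 and 43.5 in the H3K9me3 libraries, a lean of 1.84 ± 0.27 (SE, adjusted p = 9.98e-11). The pair in an intron of Gm26573, near Zfp981 and Zfp992 (chr4:146484833-146485075), held 11.4 and 15.1 RPM in the H3K9me2 libraries and 36 and 36.6 in the H3K9me3 libraries, a lean of 1.45 ± 0.26 (SE, adjusted p = 3.74e-07) that per kb was 0.38 (adjusted p = 0.332).

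Vomeronasal receptor genes, which encode pheromone receptors and are silent in fibroblasts, had 67 pairs within 50 kb. Of these, 17 were called toward H3K9me3 and 0 toward H3K9me2, with a median lean of 0.82, or 0.53 per kb. This is 25.4%, below the 33.5% of all pairs. Per kb 6 were called toward H3K9me3, and under TMM 4 toward H3K9me3 and 3 toward H3K9me2. The pair near Vmn1r-ps60 (chr7:12010348-12010912) held 32.6 and 29.9 RPM in the H3K9me2 libraries and 91 and 114 in the H3K9me3 libraries, a lean of 1.71 ± 0.21 (SE, adjusted p = 2.31e-14) that stayed at 1.55 (adjusted p = 1.62e-11) per kb. The pair near Vmn1r238 (chr18:3117919-3118194) held 8.15 and 9.77 RPM in the H3K9me2 libraries and 32.6 and 35 in the H3K9me3 libraries, a lean of 1.92 ± 0.28 (SE, adjusted p = 2.37e-10), and per kb 0.61 (adjusted p = 0.116). The pair near Vmn2r-ps18 and Zfp991 (chr4:147095583-147096040) held 5.97 and 4.43 RPM in the H3K9me2 libraries and 15.2 and 20.3 in the H3K9me3 libraries, a lean of 1.77 ± 0.37 (SE, adjusted p = 1.46e-05). Among the named pairs, the one near Zfp640 and the one near Vmn2r-ps18 and Zfp991 count in both the zinc finger and the vomeronasal list. The pair near Olfr855, described below, counts in both the zinc finger and the olfactory list.

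Olfactory receptor genes, the odorant receptors, had 11 pairs within 50 kb, of which 2 were called toward H3K9me3 (18.2%, beside 33.5% of all pairs), with a median of 0.54, while 1 was called per kb and 0 under TMM. The pair near Olfr855 (chr9:19575260-19575675) held 15.6 and 16 RPM in the H3K9me2 libraries and 32.6 and 38.9 in the H3K9me3 libraries, a lean of 1.18 ± 0.25 (SE, adjusted p = 3.12e-05), and the pair near Olfr791 (chr10:129520421-129520659) 2.17 and 2.77 RPM in the H3K9me2 libraries and 11.7 and 8 in the H3K9me3 libraries, a lean of 1.98 ± 0.56 (SE, adjusted p = 0.00194) that per kb was 0.49 (adjusted p = 0.63). Over an exon of Olfr1120 (chr2:87360284-87360493) the 4 values were apart (1.09 and 0.922 RPM in the H3K9me2 libraries and 3.33 and 4.33 in the H3K9me3 libraries), but 11 reads against 34 left a difference of 1.91 ± 0.85 (SE, adjusted p = 0.0702). Cytochrome P450 genes, which encode drug and steroid oxidases, had 6 pairs, 2 of them called, with a median of 0.58. This is 33.3%, close to the 33.5% of all pairs, and none was called toward H3K9me3 per kb or under TMM. In the pseudogene Cyp2c53-ps one pair (chr19:39260592-39260888) held 13.2 and 14.9 RPM in the H3K9me2 libraries and 24.8 and 26.6 in the H3K9me3 libraries, a lean of 0.87 ± 0.28 (SE, adjusted p = 0.00668) that per kb was 0.45 (adjusted p = 0.265), and the other (chr19:39267047-39267378) had a log2 difference of 0.74 ± 0.32 (SE, adjusted p = 0.0587). The pair near Cyp2c38 (chr19:39380564-39380802) held 2.17 and 4.79 RPM in the H3K9me2 libraries and 15.2 and 5.84 in the H3K9me3 libraries, a lean of 1.59 ± 0.49 (SE, adjusted p = 0.0054) and a per-kb value of 0.18 (adjusted p = 0.865).

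The 2 pairs near the beta-defensin gene Defb33, an antimicrobial peptide gene, were both called, beside 33.5% of all pairs. They lay next to each other (chr8:20946140-20946535 and chr8:20946989-20947911). The first held 11.2 and 15.3 RPM in the H3K9me2 libraries and 35 and 30.1 in the H3K9me3 libraries, a lean of 1.29 ± 0.27 (SE, adjusted p = 1.19e-05). The second held 21.7 and 24.2 RPM in the H3K9me2 libraries and 74.1 and 67.9 in the H3K9me3 libraries, a lean of 1.63 ± 0.22 (SE, adjusted p = 1.17e-11). Both stayed called per kb. Under TMM the first had 0.60 (adjusted p = 0.117) and the second 0.93 (adjusted p = 0.000596). The single pairs in Skint6, of a family named for the selection of skin T cells, and in Speer4cos, an antisense gene of a spermatogenesis-associated family, were not called, with log2 differences of 1.04 ± 0.68 (SE, adjusted p = 0.249) and 0.88 ± 0.53 (SE, adjusted p = 0.201). In Skint6 the marks overlapped, with 1.63 and 3.87 RPM in the H3K9me2 libraries and 9.29 and 2.16 in the H3K9me3 libraries. The other 7 of 14 lists had no pair within 50 kb: Pramel, serpin, killer lectin-like receptor, protocadherin, imprinted genes, germline genes repressed with H3K9me2, and the writers and readers of H3K9 methylation. The imprinted list held chosen genes and left out Snhg14, which is described below.

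**Figure D4:**
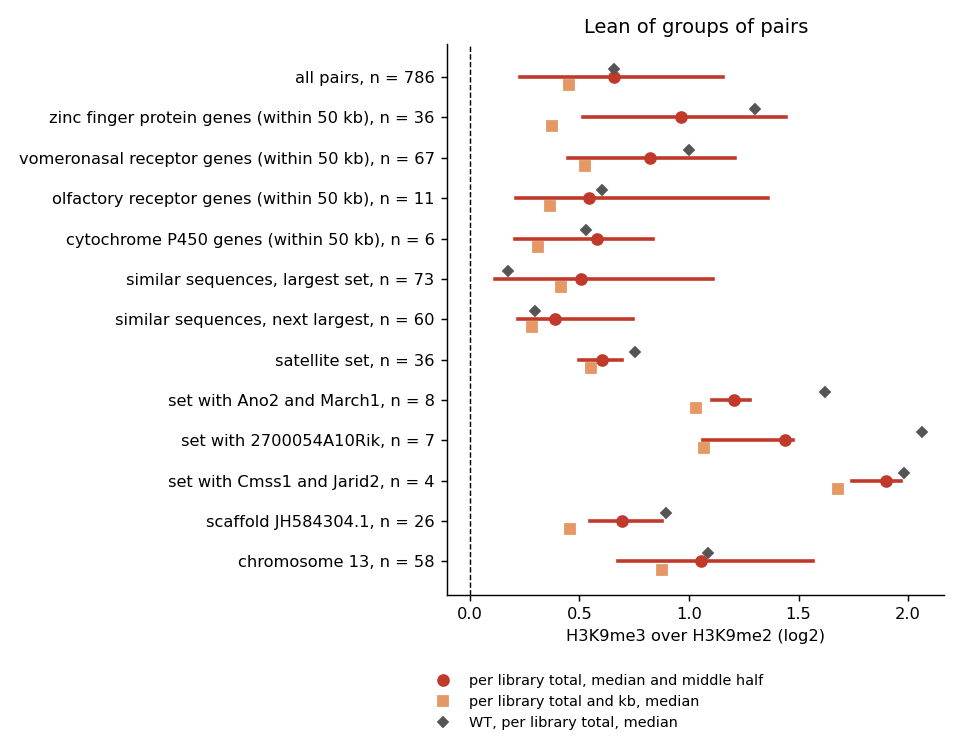
Median lean (log2) of groups of pairs, per library total with the quartiles as the ends of a bar, per kb of region (squares) and in the WT libraries (diamonds), with the number of pairs beside each name. The 4 pairs with Cmss1 and Jarid2 sit at 1.90, the 36 satellite pairs at 0.60 and the 36 near zinc finger genes at 0.96, which falls to 0.37 per kb.

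By place in the genome, the median lean of the chromosomes with at least 20 pairs ran from 0.36 to 1.06. Chromosome 13 had the highest, at 1.06 over 58 pairs (0.88 per kb), and chromosome 6 the lowest, at 0.36 over 33 pairs (0.33 per kb). Per kb, chromosome 19 (0.26 over 22 pairs) and chromosome 18 (0.29 over 20 pairs) were lower than chromosome 6. Calls toward H3K9me3 made up 29.3% of the pairs on chromosome 13 and 33.3% of those on chromosome 6, beside 33.5% of all pairs. The unplaced scaffold JH584304.1 held 26 pairs in its bases 219 to 113493. Of these, 21 were called (80.8%, beside 33.5% of all pairs). Their leans ran from 0.10 to 1.98, with a median of 0.69 beside 0.66 over all pairs. Per kb 14 were called, and under TMM 4 toward H3K9me3 and 2 toward H3K9me2. The median of the mean counts was 870 reads on this scaffold, beside 44.75 over all pairs. Pairs in the first 5 Mb of a chromosome, beside the centromere, had a median of 0.59 with 44 of 76 called. Without chromosome 9 and its satellite copies 26 of 57 were called, and under TMM 8 of the 76 were called toward H3K9me3 and 11 toward H3K9me2. Those in the last 5 Mb had a median of 0.80 with 25 of 65 called, and elsewhere the median was 0.64 with 161 of 600 called. The median of the mean counts was 185 reads in the first 5 Mb, 59.5 in the last 5 Mb and 35.75 elsewhere. The Cdc27 and Snhg14 clusters were chosen after their values were seen. At Cdc27 on chromosome 11, a subunit gene of the anaphase-promoting complex, all 4 pairs were called, with leans of 1.05 to 1.88, while 2 were called per kb (median 0.85) and 1 under TMM. The highest (chr11:104550371-104550620) held 6.34 and 9.77 RPM in the H3K9me2 libraries and 26 and 33.5 in the H3K9me3 libraries. At Snhg14 on chromosome 7, the imprinted host gene of snoRNA clusters, all 4 were called, with leans of 0.85 to 1.34, while 2 were called per kb (median 0.61) and 0 under TMM. The highest there (chr7:59771458-59771748), over the snoRNA gene Gm22128, held 13.8 and 18.1 RPM in the H3K9me2 libraries and 35.5 and 45.2 in the H3K9me3 libraries.

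The median lean moved over a narrow range with gene features and base content, while the TMM calls moved further with base content. The medians were 0.72 for 102 pairs over exons, 0.57 for 263 over introns and 0.69 for 421 between genes, with 49, 76 and 138 called toward H3K9me3 (48.0%, 28.9% and 32.8%, beside 33.5% of all pairs). Under TMM 13, 24 and 34 were called toward H3K9me3 and 8, 33 and 29 toward H3K9me2. By quartile of GC content the median went from 0.46 to 0.63, 0.71 and 0.85, and per kb from 0.41 to 0.38, 0.49 and 0.51. Under TMM the GC quartiles had 4, 16, 13 and 31 pairs called toward H3K9me3 and 40, 14, 10 and 4 toward H3K9me2. In the quartile richest in CG dinucleotides 93 of 185 pairs were called with a median of 0.77, where the other quartiles had 41 of 186, 45 of 186 and 51 of 184 called. Under TMM the richest had 40 toward H3K9me3 and 12 toward H3K9me2, and the others 11 and 13, 7 and 26, and 6 and 17. Across 741 pairs, Spearman's rho of the lean was 0.22 with GC content and 0.13 with CG density. At least 1 CG lay in 608 of the 741 windows (82.1%). The telomere repeat, as 2 tandem TTAGGG units on either strand, lay in 13 (1.75%), of which 3 were called (23.1%, beside 33.5% of all pairs), with a median of 0.56. Calls also followed depth, from 14 of 199 pairs in the quartile with the lowest mean count to 138 of 197 in the highest, while the median lean was 0.65 and 0.68.

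Both mitochondrial pairs were in ribosomal RNA genes of a genome that has no histones, although nuclear copies of mitochondrial sequence exist, and their levels are given beside the others as a background. The mt-Rnr1 pair (MT:287-815) held 3.44 and 2.03 RPM in the H3K9me2 libraries and 9.76 and 8.87 in the H3K9me3 libraries, a lean of 1.76 ± 0.56 (SE, adjusted p = 0.00692) and under TMM of 1.07 (adjusted p = 0.209). The mt-Rnr2 pair (MT:1915-2160) held 6.7 and 5.35 RPM in the H3K9me2 libraries and 5.72 and 5.41 in the H3K9me3 libraries, a log2 difference of -0.12 ± 0.54 (SE, adjusted p = 0.901). The median pair, at 7.06 and 7.19 RPM with H3K9me2 and 11.1 and 10.6 with H3K9me3, lay above both mitochondrial pairs in each mark. Of the 10 pairs with the largest lean, 5 had both H3K9me3 libraries below both of those at mt-Rnr1.

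The WT libraries, which share no library with the KO comparison, gave the same pairs a similar median lean. It was 0.66 in WT as in KO, and the log2 difference was above 0 in 589 of the 786 pairs (74.9%). Of the 263 pairs called toward H3K9me3 in KO, 254 were above 0 in WT (96.6%), and in 192 (73.0%) both WT H3K9me3 libraries lay above both WT H3K9me2 libraries, where 338 of all 786 did (43.0%). The 3 pairs called toward H3K9me2 were all below 0 in WT. The WT levels at Cldn34d were 71.5 and 67.4 with H3K9me2 and 39.1 and 66.9 with H3K9me3, at Sos2 10.4 and 4.46 with H3K9me2 and 7.06 and 3.51 with H3K9me3 and near Gm23215 7.48 and 10 with H3K9me2 and 4.3 and 4.74 with H3K9me3, all in RPM. At the rRNA stretch of chromosome 17 they were 708 and 928 with H3K9me2 and 5587 and 3477 with H3K9me3. Across the 786 pairs Spearman's rho between the KO and WT leans was 0.57, and 0.40 per kb. The points share region widths and repeat content.

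The WT calls depended on whether the replicate number entered the fit. Without it, edgeR called no pair in either direction, with 149 and 3 at an unadjusted p under 0.05, and DESeq2 called 90 toward H3K9me3 and 0 toward H3K9me2 of 451 with an adjusted p (20.0%). The common dispersion was 0.302, against 0.0414 in KO. The WT libraries of the same number deviated together between the marks (Pearson's r of 0.73 across the 786 pairs, which share libraries), and those of KO did not (-0.04). With the replicate number as a block, an alternative chosen after seeing the data, the WT dispersion was 0.0437, and edgeR called 240 WT pairs toward H3K9me3 (30.5%) and 3 toward H3K9me2 (0.382%), 30.9% together. Of those 240, 188 were also called in KO. The labels do not say that a number marks a line, so this pairing is a hint from the data. A test of the difference between genotypes, the interaction of mark and genotype in edgeR over all 8 libraries, called no pair, with 8 pairs leaning more in KO and 9 more in WT at an unadjusted p under 0.05. With the replicate number within genotype as a block it also called none, with 23 and 35 pairs. Of the pairs named here, 1 was among those of the fit without the block, the pair near Gm10358. Its WT levels were 2.73 and 3.85 with H3K9me2 and 2.24 and 2.11 with H3K9me3, in RPM (interaction unadjusted p = 0.01). At 18 of the 48 named pairs WT library 2 was higher than library 1 in each mark. So was the median over all 786 pairs, at 4.16 and 6.7 RPM with H3K9me2 and 7.23 and 10.2 with H3K9me3 in WT libraries 1 and 2. Of the 18 named pairs, the one near Zfp640 had WT levels of 1.07 and 5.23 with H3K9me2 and 5.68 and 16.5 with H3K9me3. The one near Gm19428 had 1.19 and 10.5 with H3K9me2 and 6.54 and 35.3 with H3K9me3.

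**Figure D5:**
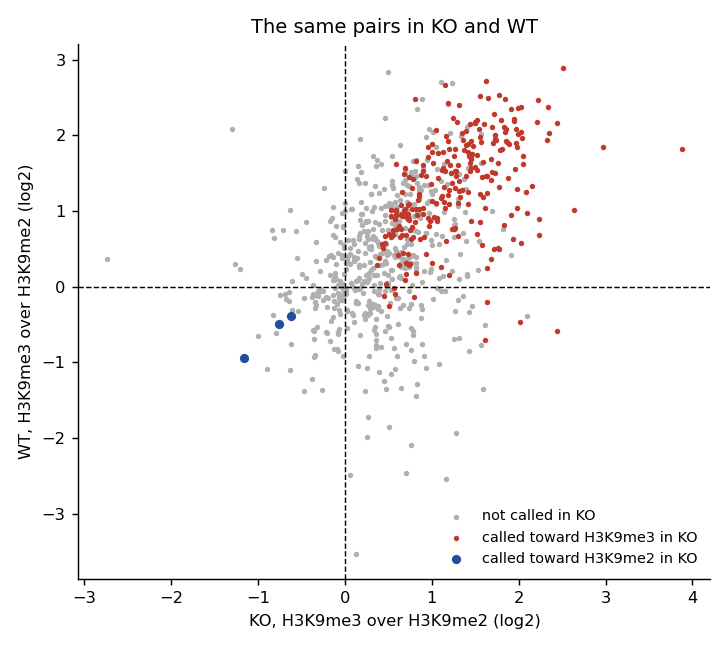
Lean of each of the 786 pairs in KO (x axis) and WT (y axis), both log2 of H3K9me3 over H3K9me2, with dashed lines at 0. Of the 263 pairs called toward H3K9me3 in KO (red), 254 lie above 0 in WT, and the 3 called toward H3K9me2 (blue) lie below 0 in both.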

How the data were processed

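Histone marks were measured by ChIP-seq in 8 libraries, 2 for each of the groups KO H3K9me2, KO H3K9me3, WT H3K9me2 and WT H3K9me3, which were taken from the sample labels. The authors aligned paired-end reads to mm10 with BWA 0.7.12 and called peaks with MACS2 2.1.0, and they name DiffBind, per the labels. The deposited counts are whole reads per region and library, in 1 table for each mark. The deposited RPM values are those counts plus 1, scaled to the library total. Library totals were recovered as counts plus 1 divided by RPM and agreed within 0.000483% over regions. The levels in the text were computed from the counts and these totals, without the added 1. Columns of the authors' own comparison of KO with WT (fold enrichment, log fold change, p-value and q-value) were not used, and what the totals count (for example, spike-in reads) is not given in the sources used here.

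Duplicated rows were removed (62 of 2045 H3K9me2 rows and 314 of 14829 H3K9me3 rows) and regions were paired with bedtools 2.31.1. The members, gene lists and naming rule were chosen with earlier results of these data known. Counts were tested with edgeR 4.0.16 (quasi-likelihood, two-sided, library totals as size, no TMM, no filter, R 4.3.3), with Benjamini-Hochberg adjustment over the 786 pairs. DESeq2 1.42.0 was an alternative. Standard errors were the log2 difference divided by the root of the F statistic. Depth set the precision: the median pair held 39 reads in each H3K9me2 library and 46.5 and 49 in the H3K9me3 libraries. The labels do not say whether KO 1 and KO 2 name the same line for both marks, and p-values measure the spread between 2 libraries a group.

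Pairs were named as the 10 called and non-overlapping pairs with the largest log2 difference in each direction (3 toward H3K9me2), the 5 with the highest mean, and up to 3 per gene list by unadjusted p, 33 in all. Another 15, from rRNA, mitochondrial, repeat and cluster groups, were added after their values were seen. Genes were taken from GENCODE vM21 and sequences from GRCm38.p6. The 45 pairs on unplaced scaffolds or the mitochondrial genome have no sequence here. Similar sequences were found with blastn 2.17.0 (at least 80% identity over 50% of the shorter part), and repeat shifts were searched from 30 bases. Scripts were tested on simulated data. The alternatives were other scalings, counts per kb, overlap, count and summit filters, chromosomes 1 to 19, leaving out each KO library, a replicate block, DESeq2, all 8 libraries in 1 fit, a replicate block in WT and in the interaction (added after seeing the data), other thresholds and a pseudocount of 0.1.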

Additional observations from a re-analysis of the deposited data

Results flagged for a closer look

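Among the named pairs, 1 had its marks apart in opposite directions in KO and WT, as had 23 of all 786 pairs. Near Gm10358, an intergenic pair on chromosome 8, both KO H3K9me3 libraries lay above both KO H3K9me2 libraries, and in WT both H3K9me2 libraries lay above both H3K9me3 libraries. The log2 differences were 2.44 in KO and -0.59 in WT, 3.03 apart. The interaction of mark and genotype had an unadjusted p of 0.01 by edgeR over all 8 libraries, and no pair passed after adjustment over the 786 pairs. With the replicate number as a block it was 0.015 unadjusted. The KO libraries held 10 H3K9me2 and 45 H3K9me3 reads there.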

How the results depend on the processing

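The direction rested on the scaling. The 266 calls became 141 under TMM, 110 with DESeq2's own size factors (59 toward H3K9me3, 51 toward H3K9me2) and 224 with the reads in all regions of a mark as library size, where 30 leaned to H3K9me3 and 194 to H3K9me2. The median lean of 0.58, on the log2(RPM + 1) scale, became -0.015 under TMM and -0.42 with reads in regions, and the share of pairs higher in H3K9me3 fell from 83.6% to 49.0% and 28.2%. The 5 satellite pairs reversed under all 3 scalings. Under TMM they had -0.045 (Gm10801), -0.25 (Gm10800), -0.17 (Gm10722), -0.27 (Gm10718) and -0.15 (Gm33838), with reads in regions -0.46, -0.67, -0.58, -0.68 and -0.57, and with DESeq2's size factors -0.039, -0.25, -0.16, -0.26 and -0.15. With reads in regions, Skint6 (-0.063), Speer4cos (-0.23) and the Cyp2c53-ps pairs (-0.25 and -0.37) also reversed. Per kb there were 173 calls and 80.7% higher in H3K9me3, with Tmem267 at -0.19 and mt-Rnr2 at 0.44. The 257 pairs with 1 summit in both tables gave 1 call and 80.9%. The fit on all 8 libraries gave 85 calls, and a log2 difference of at least 1 left 172.

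Leaving out each KO library gave 163 to 213 calls and 79.5% to 84.0% of pairs higher in H3K9me3, with the lowest count without the KO 2 H3K9me3 library. Skint6 ran from -0.34 to 1.78 and mt-Rnr2 from -0.27 to 0.056. The replicate number as a block gave 253 calls and changed no call among the 48 named pairs. In the fit on all 8 libraries 20 of the 48 lost their call, and some also lost it when a KO library was left out. The KO replicate deviations of the marks had a Pearson correlation of -0.04 over 786 pairs, so the numbers were not shown to pair the libraries. In WT the correlation was 0.73, and the replicate block moved the WT count from 0 to 243 calls and left the interaction count at 0, alternatives added after seeing the data. The other alternatives (50% overlap, a mean count of at least 20, chromosomes 1 to 19, DESeq2 on library totals, other adjusted p thresholds, a pseudocount of 0.1) kept direction, with 208 to 321 calls. The cause of these changes was not tested.

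Low counts, 2 libraries a group and unstated handling of reads from repeated sequence limit single pairs.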

Other observations

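At both Defb33 pairs on chromosome 8, WT library 2 of each mark was at or near 0. It had 0 H3K9me2 reads at both and 0.351 and 0 RPM of H3K9me3, where WT library 1 had 5.46 and 17.6 RPM of H3K9me2 and 24.8 and 49.0 of H3K9me3, and both KO libraries of each mark held reads.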
